A study of Mus musculus with 12 samples.

Results

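The transcripts described here are those of the solute carrier families that move amino acids, neurotransmitters, taurine and creatine across membranes. Members were the protein-coding genes whose symbols begin with Slc1a, Slc3a, Slc6a, Slc7a, Slc36a or Slc38a and a digit, less 3 genes that are not analysed here, which gave 58 of the 55487 genes in the count table. They were measured in breast tumours of 12 C57BL/6J mice, all carrying MMTV-PyMT, a transgene that expresses the polyoma virus middle T oncogene in mammary epithelium from a mouse mammary tumour virus promoter. The 6 Bad3SA mice carried a form of BAD, a pro-apoptotic BCL2 family protein, whose regulatory serines cannot be phosphorylated, and the 6 Bad+/+ mice carried wild-type Bad. Tumours were taken at end point, at 22.9 to 31.1 weeks in Bad3SA mice and 21.3 to 27.1 weeks in Bad+/+ mice. Each library was polyadenylated RNA from a separate mouse, with 58096172 to 83296370 counts. Levels are counts scaled to library size (CPM) with TMM factors, which adjust for differences in composition between libraries.

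These carriers differ in what they move and in what drives them. SLC1 and SLC6 proteins use the sodium gradient to take up glutamate, neutral amino acids, glycine, GABA, monoamines, taurine or creatine, SLC38 proteins carry glutamine and other small neutral amino acids, and SLC36 proteins, most of them coupled to protons, act partly on lysosomes. Many SLC7 proteins are light chains that reach the membrane only as heterodimers with an SLC3 heavy chain and exchange one amino acid for another. In growing tumours they supply glutamine, leucine and cystine, and several genes of the set are targets of ATF4, the transcription factor of the amino acid response.

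Tumour libraries were not uniform within a genotype. On the principal components of the 500 most variable genes, Bad3SA 4, 5 and 6 held one end of the second component (-24.3, -28.3 and -34.0, against -2.94 to 2.68 in Bad3SA 1 to 3 and 5.95 to 40.6 in Bad+/+), where Bad+/+ 4 held the other end. On the first component, which carried 42.1% of the variance against 17.9% for the second, Bad3SA 1 to 3 (-40.7 to -30.6) lay with Bad+/+ 4 (-39.4), Bad3SA 4 to 6 at -13.1 to 5.10 and the other Bad+/+ tumours at 21.5 to 45.6. Skeletal muscle markers summed to 3.80 to 179 CPM in Bad3SA tumours, against 1265 CPM in Bad+/+ 4 and at most 25.7 CPM in the other Bad+/+ tumours. All 9 epithelial markers were detected, and their sum was 5520 to 7495 CPM in Bad3SA and 5880 to 7093 CPM in Bad+/+. In whole tumour pieces, fewer cells of a type and less RNA per cell cannot be told apart. Bad3SA mice were 3.40 weeks older on average (27.5 ± 2.85 weeks in Bad3SA and 24.0 ± 1.93 weeks in Bad+/+, SD, n = 6 each, exact two-sided permutation p = 0.0433).

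Over the whole set, no carrier transcript passed the genotype test. Of the 58 members, 33 had enough counts to be tested, and 0 had an adjusted p under 0.05 in edgeR's quasi-likelihood test, where 1.38% of all 18019 genes tested did (0.622% higher and 0.76% lower in Bad3SA). At an unadjusted p under 0.05 there were 8 members, 4 with a positive and 4 with a negative log2 fold change (Bad3SA over Bad+/+), beside 16.2% of all genes (7.18% positive and 9.02% negative). The median log2 fold change was -0.07 over the 33 members, of which 14 were positive and 19 negative, and 0.00326 over all genes. In none of the 33 were the CPM of the 6 Bad3SA tumours all above or all below those of the 6 Bad+/+ tumours, beside 2.23% of all genes (0.96% above and 1.27% below). DESeq2 called 2 members, Slc38a1 and Slc7a3 (4.81% of all genes), and limma voom with quality weights called Slc38a1 alone (3.21% of all genes). The authors' deposited table gives 45 members an adjusted p and calls the same pair (4.02% of all genes there). With end-point age in the edgeR model 0 members passed, beside 0.405% of all genes. Over the planned refits, which changed the tool, the filter or the covariates or left out 1 tumour, 18 of the 33 kept the sign of their fold change. The sign turned in at least 1 refit for the 15 others, Slc1a2, Slc1a4, Slc38a2, Slc38a7, Slc3a1, Slc3a2, Slc6a2, Slc6a6, Slc6a8, Slc6a13, Slc6a14, Slc6a19, Slc7a4, Slc7a6 and Slc7a8, whose log2 fold changes lay between -0.44 and 0.17.

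**Figure D1:**
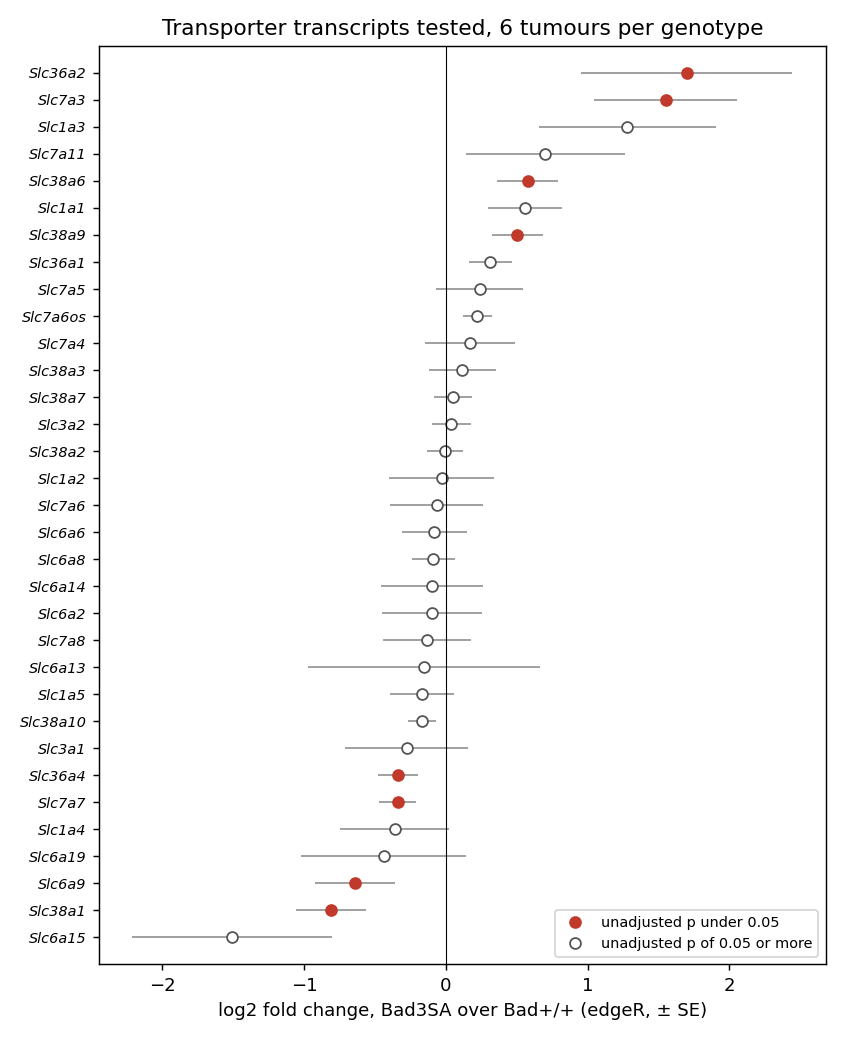
Log2 fold change (horizontal axis, Bad3SA over Bad+/+, edgeR) with its standard error for the 33 members tested, one per line. The 8 filled points have an unadjusted p under 0.05, from Slc36a2 at 1.70 to Slc38a1 at -0.81, and no member has an adjusted p under 0.05.

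The 25 members that were not tested had few counts, or counts in few tumours. Their total over the 12 tumours ran from 1 to 225 counts, and 24 of them had at most 100. They include 6 of 9 neurotransmitter carriers of the SLC6 family, among them the dopamine carrier Slc6a3 (12 counts in Bad3SA and 24 in Bad+/+) and the serotonin carrier Slc6a4 (39 and 22 counts in the same order), 5 of 10 light chains of the SLC7 family, and 6 of 11 other SLC6 genes. The placental and liver carrier Slc38a4 had the most counts, 70 in Bad3SA and 155 in Bad+/+, of which 126 (1.88 CPM) were in Bad+/+ 4, the tumour with the high muscle markers. Slc7a10, an adipocyte carrier of small neutral amino acids, had 59 counts in Bad3SA and 28 in Bad+/+, with its highest count, 24, in Bad3SA 5, where adipocyte markers were also highest. The part of other tissue in these counts was not tested.

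Per length of exon, and ordered by the mean over all 12 tumours, the heavy chain Slc3a2 was the most abundant transcript of the set. The length merges all annotated exons of a gene and can exceed that of any single transcript, which lowers the level per kilobase. It was 17.2 kb for Slc38a1, 16.7 kb for Slc38a9 and 13.9 kb for Slc7a11, so the order depends on this choice. Slc3a2, which encodes CD98, the shared partner of most light chains, stood at 62.6 ± 8.32 CPM per kilobase in Bad3SA and 61.0 ± 11.0 CPM per kilobase in Bad+/+ (SD, n = 6 each). Slc7a5, which encodes the leucine carrier LAT1, followed at 39.0 ± 17.8 CPM per kilobase in Bad3SA and 33.1 ± 13.0 in Bad+/+, and Slc38a10 at 32.6 ± 2.82 in Bad3SA and 36.7 ± 4.24 in Bad+/+. The next 3, the creatine carrier Slc6a8, the glutamine carrier Slc38a2 and the taurine carrier Slc6a6, stood at 17.2 ± 4.08, 16.4 ± 2.01 and 12.3 ± 4.77 CPM per kilobase in Bad3SA and at 18.3 ± 2.11, 16.5 ± 2.97 and 13.0 ± 2.09 in Bad+/+. Slc3a2 was the highest member in 12 of the 12 tumours, whereas the spreads of Slc7a5 and Slc38a10, and those of the next 3, overlapped. In Bad+/+ alone the mean of Slc38a10 stood above that of Slc7a5, and that of Slc1a4, at 13.7 ± 10.6 CPM per kilobase, above that of Slc6a6. For Slc1a4 that mean was raised by Bad+/+ 3, at 34.6 CPM per kilobase against 6.40 to 14.5 in the other Bad+/+ tumours.

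**Figure D2:**
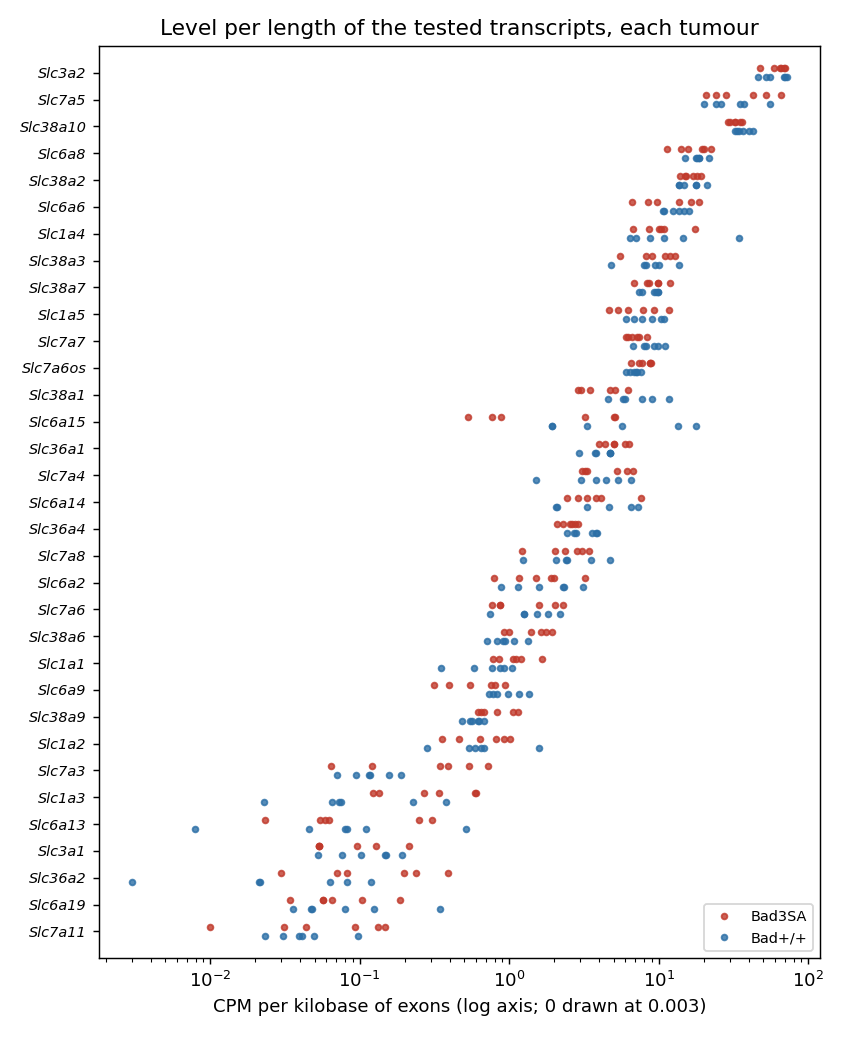
CPM per kilobase of exons (horizontal log axis) of the 33 tested members in each Bad3SA tumour (red, upper row) and each Bad+/+ tumour (blue, lower row). Slc3a2 heads the order at a mean of 62.6 in Bad3SA and 61.0 in Bad+/+, and Slc7a11 is last at 0.0765 in Bad3SA and 0.0471 in Bad+/+.

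Among the sodium-coupled neutral carriers, Slc38a1 had the smallest p of the set. Slc38a1 (ENSMUSG00000023169, GRCm38 chromosome 15, 96571418 to 96642913, minus strand) encodes SNAT1, which brings glutamine into cells. It was at 60.1, 49.8, 52.3, 87.8, 81.5 and 108 CPM in Bad3SA 1 to 6, against 133, 99.5, 102, 79.5, 156 and 203 CPM in Bad+/+ 1 to 6. All 6 Bad3SA tumours lay below the Bad+/+ median, and the groups overlapped, since Bad3SA 4, 5 and 6 exceeded Bad+/+ 4 and Bad3SA 6 also exceeded Bad+/+ 2 and 3. Its fitted log2 fold change was -0.81, with SE 0.25 and an edgeR adjusted p of 0.144. The adjusted p was 0.0400 in DESeq2 and 0.0297 in limma voom. In the authors' deposited table its log2 fold change, which runs as Bad+/+ over Bad3SA, was 0.75 with a DESeq2 adjusted p of 0.0476. With end-point age in the edgeR model it was -0.67 (SE 0.35, adjusted p = 0.726).

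The neighbouring gene Slc38a2 on chromosome 15 (96687392 to 96699730), which encodes SNAT2, the amino-acid-regulated carrier of the same substrates, had no such difference. It was at 169, 135, 159, 132, 123 and 151 CPM in Bad3SA 1 to 6 and at 188, 130, 122, 121, 158 and 157 CPM in Bad+/+ 1 to 6. The groups covered nearly the same range, and the fitted difference was -0.01 on the log2 scale (edgeR adjusted p = 0.978, SE 0.13). Slc38a10, a less studied member of the family, stood at 209 ± 18.1 CPM in Bad3SA and 236 ± 27.2 CPM in Bad+/+ (SD, n = 6 each, log2 fold change -0.17, SE 0.10, edgeR adjusted p = 0.401).

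Slc38a9 and Slc38a6 had positive fold changes below the threshold. Slc38a9, a lysosomal carrier that signals arginine to mTORC1, was at 11.3, 10.4, 14.0, 19.3, 10.9 and 17.8 CPM in Bad3SA 1 to 6, against 10.4, 11.4, 10.5, 9.21, 9.43 and 8.12 CPM in Bad+/+ 1 to 6. All 6 Bad3SA tumours lay above the Bad+/+ median, while Bad3SA 1, 2 and 5 were within the Bad+/+ range (log2 fold change 0.50, SE 0.18, edgeR adjusted p = 0.199). Slc38a6 was at 7.77, 7.23, 12.8, 15.0, 10.9 and 13.6 CPM in Bad3SA 1 to 6, against 8.37, 7.27, 10.4, 6.45, 7.13 and 5.57 CPM in Bad+/+ 1 to 6. Bad3SA 3 to 6 exceeded every Bad+/+ tumour and Bad3SA 1 and 2 did not (log2 fold change 0.58, SE 0.22, edgeR adjusted p = 0.222). The remaining tested members, Slc38a3 and the lysosomal glutamine carrier Slc38a7, stood at log2 fold changes of 0.11 (SE 0.24) and 0.05 (SE 0.14).

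**Figure D3:**
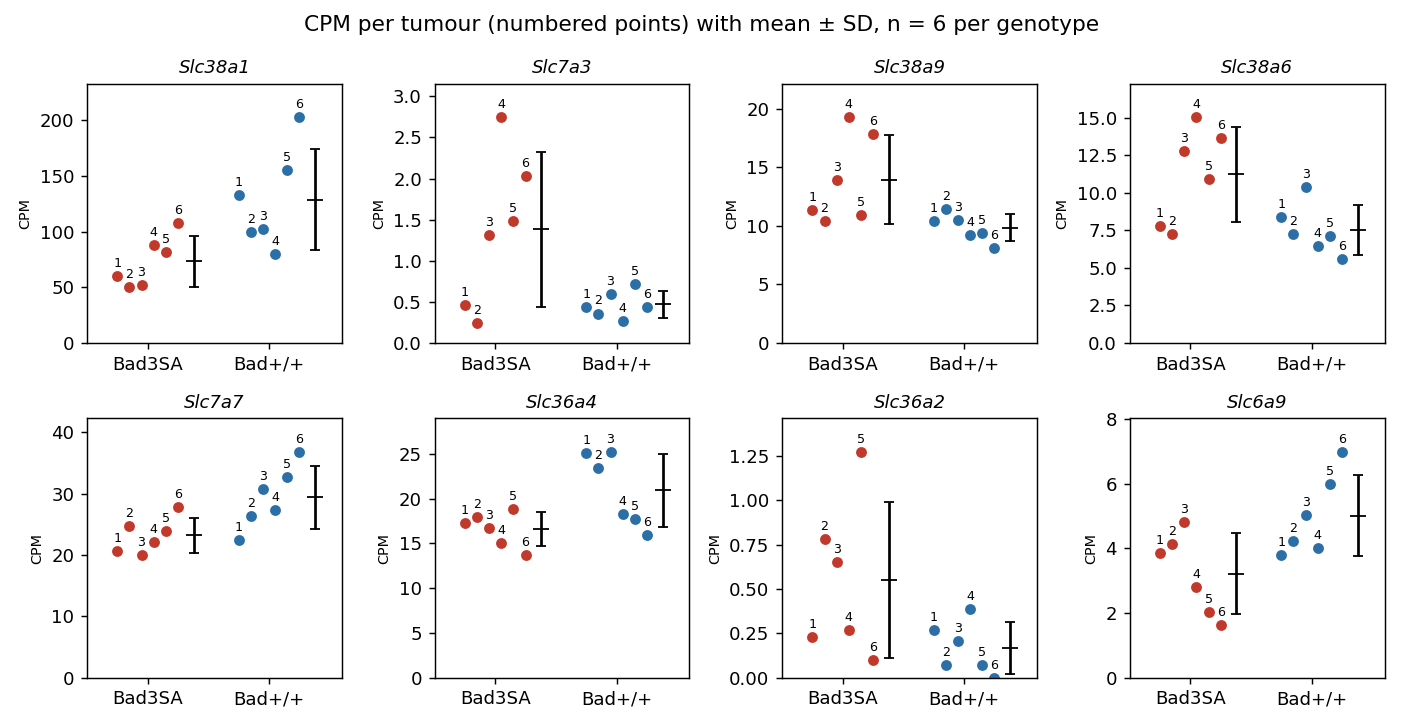
CPM (vertical axis, from 0) of the 8 members with an unadjusted p under 0.05, in each Bad3SA tumour (red, left) and each Bad+/+ tumour (blue, right), numbered as in the labels, with the mean and SD over 6 tumours in black. The groups overlap in every panel, as in Slc38a1, where Bad+/+ 4 at 79.5 CPM lies among the Bad3SA tumours.

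Slc7a3 was the other member called by DESeq2, at a low level. Slc7a3 (ENSMUSG00000031297, X chromosome, 101079210 to 101086020, minus strand) encodes CAT3, a carrier of arginine, lysine and ornithine. It was at 0.460, 0.244, 1.31, 2.74, 1.49 and 2.03 CPM in Bad3SA 1 to 6, against 0.439, 0.358, 0.596, 0.268, 0.715 and 0.441 CPM in Bad+/+ 1 to 6. Bad3SA 3 to 6 were above every Bad+/+ tumour, and Bad3SA 1 and 2 lay within or below their range. The log2 fold change was 1.55 (SE 0.50, edgeR adjusted p = 0.171). It passed in DESeq2 (1.56, adjusted p = 0.0445) and not in limma voom (1.04, adjusted p = 0.356). The authors' deposited table gives -1.16, as Bad+/+ over Bad3SA, with a DESeq2 adjusted p of 0.0395. Slc7a4, a related gene whose product has no established transport activity, stood at 19.2 ± 6.79 CPM in Bad3SA and 17.1 ± 7.35 CPM in Bad+/+ (SD, n = 6 each, log2 fold change 0.17, SE 0.32).

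The heavy chain Slc3a2 did not differ detectably between genotypes, and its light chains varied from tumour to tumour. Slc3a2 was at 249, 232, 242, 209, 227 and 168 CPM in Bad3SA 1 to 6, against 163, 197, 256, 243, 247 and 185 CPM in Bad+/+ 1 to 6 (log2 fold change 0.04, SE 0.14, edgeR adjusted p = 0.902). Slc7a5 was at 245, 159, 193, 104, 90.0 and 76.7 CPM in Bad3SA 1 to 6, against 74.1, 96.4, 89.7, 207, 131 and 138 CPM in Bad+/+ 1 to 6. Bad3SA 1 to 3 and Bad+/+ 4 were its highest tumours, and the other Bad3SA tumours lay among the low Bad+/+ ones, and the fitted difference was 0.24 on the log2 scale (edgeR adjusted p = 0.713, SE 0.31), or 0.00565 without Bad3SA 1 and 0.58 in limma voom. Per kilobase, Slc7a5 reached 0.937, 0.653 and 0.758 of the Slc3a2 level in Bad3SA 1 to 3 and 0.475, 0.377 and 0.435 of it in Bad3SA 4 to 6. In Bad+/+ tumours that ratio ran from 0.333 in Bad+/+ 3 to 0.810 in Bad+/+ 4.

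Slc7a11, the light chain of the cystine-glutamate exchanger that feeds glutathione synthesis, was likewise highest in Bad3SA 1 to 3 and Bad+/+ 4, at a much lower level. It was at 1.84, 1.29, 2.07, 0.611, 0.436 and 0.139 CPM in Bad3SA 1 to 6, against 0.549, 0.427, 0.571, 1.37, 0.687 and 0.327 CPM in Bad+/+ 1 to 6. Bad3SA 1 and 3 stood above every Bad+/+ tumour and Bad3SA 6 below them all (log2 fold change 0.70, SE 0.56, edgeR adjusted p = 0.535). It was 0.40 without Bad3SA 3 and 1.07 without Bad+/+ 4. Slc7a7, which encodes the y+LAT1 light chain for cationic and neutral amino acids, was at 20.6, 24.6, 20.0, 22.1, 23.8 and 27.8 CPM in Bad3SA 1 to 6, against 22.4, 26.3, 30.7, 27.3, 32.8 and 36.7 CPM in Bad+/+ 1 to 6. All 6 Bad3SA tumours were below the Bad+/+ median, with ranges that overlapped (log2 fold change -0.34, SE 0.13, edgeR adjusted p = 0.237). Slc7a7 is abundant in macrophages, whose 8 markers summed to 466 to 1199 CPM in Bad3SA and 438 to 1157 CPM in Bad+/+. Of these markers 7 had a positive and 1 a negative log2 fold change (median 0.23), and their part in the Slc7a7 values was not tested. Erythroid markers, summed, were at 209, 229, 214, 208, 92.7 and 67.3 CPM in Bad3SA 1 to 6, against 34.2, 26.0, 43.7, 91.9, 116 and 114 CPM in Bad+/+ 1 to 6, and their part in the light chain values was not tested. Slc7a6 and Slc7a8, further light chains, stood at log2 fold changes of -0.07 (SE 0.33) and -0.13 (SE 0.31). Slc3a1, the heavy chain of the kidney cystine carrier, was low, at 0.227 CPM on average in Bad3SA and 0.274 CPM in Bad+/+ (log2 fold change -0.28, SE 0.43).

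**Figure D4:**
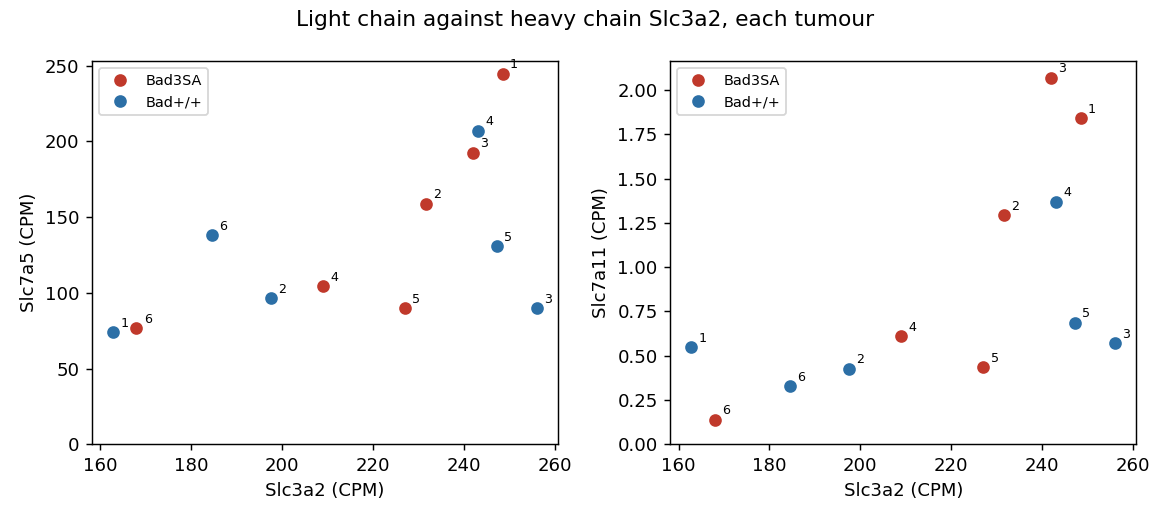
CPM of the light chains Slc7a5 (left) and Slc7a11 (right) on the vertical axes against CPM of the heavy chain Slc3a2 on the horizontal axes, one point per tumour, Bad3SA in red and Bad+/+ in blue with the label numbers. Bad3SA 1 to 3 and Bad+/+ 4 have the highest values of both light chains, 159 to 245 CPM of Slc7a5 and 1.29 to 2.07 CPM of Slc7a11, at Slc3a2 of 232 to 249 CPM.

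Correlation of the heavy chain with its tested light chains was computed on log2 CPM over the 12 tumours for 5 pairs. For Slc3a2 and Slc7a11 Pearson's r was 0.704 (permutation p = 0.0107, adjusted over 5 pairs 0.0535) and Spearman's rho 0.692 (permutation p = 0.0152, adjusted 0.0763). Without Bad+/+ 1 and Bad3SA 6, the tumours farthest from the Slc3a2 median, r was 0.650 (permutation p = 0.0431, adjusted 0.216). For Slc3a2 and Slc7a5 r was 0.619 (permutation p = 0.0340, adjusted 0.0849) and rho 0.531 (permutation p = 0.0806, adjusted 0.202), and r was 0.334 without the same tumours. Leaving out the extremes of Slc3a2 narrows its range, so a lower r cannot show that a relation rests on them. Within genotypes r was 0.917 in Bad3SA and 0.565 in Bad+/+ for Slc7a11 (exact permutation p = 0.0125 and 0.251), and 0.811 in Bad3SA and 0.457 in Bad+/+ for Slc7a5 (exact permutation p = 0.0250 and 0.336). Over the 12 tumours Pearson's r was 0.525 for Slc7a6, 0.379 for Slc7a8 and -0.0939 for Slc7a7, and no pair passed after adjustment. For Slc7a7 r was -0.81 in Bad3SA and 0.388 in Bad+/+ (exact permutation p = 0.0458 and 0.425). In Bad3SA Slc7a6 and Slc7a8 stood at 0.709 and 0.73 (exact permutation p = 0.0778 and 0.1125). The p-values within genotypes were not adjusted. Slc3a2, Slc7a5 and Slc7a11 each separated Bad3SA 1 to 3 from 4 to 6, as did 36.6% of all genes tested. The part of that split in r was not tested.

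Several members of the set are textbook targets of the amino acid response, and the core of its element, TGATGNAA, was searched for on both strands in promoter windows of RefSeq on GRCm38.p6, from 250 bases before to 50 after each start. Of the 33 tested members 22 had a window, and 3 of them held the core, against 4.51% of all genes with a window. No window was used here for Slc38a1, Slc7a3 or Slc7a5. The 3 are shown from 150 bases before to 20 after the start, 5′ to 3′ on the strand of the gene, with each match in capitals, as the members found to hold the core, chosen after that search. The windows are chr3:50443594-50443763 for Slc7a11, chr11:20332694-20332863 for Slc1a4 and chr14:54417925-54418094 for Slc7a7, all on the minus strand.
Slc7a11: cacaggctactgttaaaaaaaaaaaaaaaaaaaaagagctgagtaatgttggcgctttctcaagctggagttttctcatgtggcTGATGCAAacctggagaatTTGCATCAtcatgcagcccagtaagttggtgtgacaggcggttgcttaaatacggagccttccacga
Slc1a4: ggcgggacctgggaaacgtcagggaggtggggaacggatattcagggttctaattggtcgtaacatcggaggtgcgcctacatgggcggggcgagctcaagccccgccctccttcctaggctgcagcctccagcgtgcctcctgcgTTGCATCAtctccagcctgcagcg
Slc7a7: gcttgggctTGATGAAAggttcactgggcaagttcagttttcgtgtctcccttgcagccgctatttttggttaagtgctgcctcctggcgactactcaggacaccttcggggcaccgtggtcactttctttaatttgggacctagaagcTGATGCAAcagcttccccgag
Slc7a11 holds 2 matches facing each other, Slc7a7 holds 2 in the direction of the gene at this start, and Slc1a4 holds 1 across the start itself. Slc7a7 has further windows at other starts, with no match from 150 bases before to 20 after them. The window shown lies outside the gene as placed in GENCODE M21 (54369442 to 54417780). A gene was counted when any of its windows held the core, so genes with more windows had more chances of a match. The antioxidant response core, TGACNNNGC, lay in the windows of 5 of the 22, Slc36a1, Slc38a2, Slc6a13, Slc6a9 and Slc7a6, against 14.0% of all genes, and was not in that of Slc7a11. A match is a description of letters and not of binding.

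In the SLC1 family, no member had an unadjusted p under 0.05. Slc1a4, the ASCT1 carrier of alanine, serine and cysteine, was at 42.4, 33.7, 40.5, 39.4, 26.6 and 68.3 CPM in Bad3SA 1 to 6, against 57.1, 27.7, 136, 42.6, 34.3 and 25.1 CPM in Bad+/+ 1 to 6, so that Bad+/+ 3 stood far above all other tumours (log2 fold change -0.36, SE 0.38, edgeR adjusted p = 0.645). Without that tumour the log2 fold change was 0.14, the opposite sign. Slc1a5, the glutamine carrier ASCT2, was at 19.5, 22.4, 26.1, 32.9, 38.8 and 49.3 CPM in Bad3SA 1 to 6 and 25.2 to 45.1 CPM in Bad+/+ (log2 fold change -0.17, SE 0.22). The glutamate carriers Slc1a1, Slc1a3 and Slc1a2 stood at 0.56 (SE 0.26), 1.28 (SE 0.63) and -0.03 (SE 0.37), with edgeR adjusted p of 0.313, 0.331 and 0.972. With age as a covariate Slc1a1 stood at 0.25 and Slc1a3 at 0.75, and Slc1a2 was at 0.38 without Bad+/+ 2. All 6 Bad3SA tumours were above the Bad+/+ median of Slc1a3, whose highest values were 5.03 and 5.10 CPM in Bad3SA 2 and 3 and 3.24 CPM in Bad+/+ 2.

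Among the neurotransmitter carriers of the SLC6 family, 3 of 9 were tested and none passed. Slc6a9, the glycine carrier GlyT1, was at 3.87, 4.13, 4.82, 2.81, 2.03 and 1.63 CPM in Bad3SA 1 to 6, against 3.80, 4.24, 5.05, 4.00, 6.00 and 6.98 CPM in Bad+/+ 1 to 6. Bad3SA 4 to 6 were below every Bad+/+ tumour and Bad3SA 1 to 3 within their range (log2 fold change -0.64, SE 0.28, edgeR adjusted p = 0.286). It was -0.30 with age as a covariate in edgeR (adjusted p = 0.937) and -0.29 in limma voom (adjusted p = 0.557). Of its exon length 27.8% overlaps Ccdc24 transcribed in the opposite direction, and whether reads were counted by strand is unknown here, so reads of the pair cannot be told apart. The same holds for Slc1a1, with 31.9% of its exon length opposite 4430402I18Rik, for Slc3a1, with 26.5% opposite Prepl, for Slc7a4, with 13.3% opposite P2rx6, for Slc7a7, with 7% opposite Oxa1l, and for smaller shares of Slc38a10, Slc1a2, Slc6a6 and Slc38a9. The noradrenaline carrier Slc6a2 was at 11.1 ± 5.27 CPM in Bad3SA and 11.9 ± 5.28 CPM in Bad+/+ (SD, n = 6 each, log2 fold change -0.10, SE 0.35), while the enzyme gene that makes noradrenaline, Dbh, had 3 counts over the Bad3SA tumours and 6 over the Bad+/+ tumours, and 8 neuron markers together summed to at most 9.26 CPM in Bad3SA and 10.3 CPM in Bad+/+. The GABA carrier Slc6a13 stood at 0.365 ± 0.348 CPM in Bad3SA and 0.409 ± 0.546 CPM in Bad+/+ (log2 fold change -0.16, SE 0.82), and its log2 fold change was 0.93 without Bad+/+ 6. Slc6a2 was at 0.11 without Bad+/+ 4 and at 0.30 in limma voom.

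The other SLC6 carriers had 5 of 11 members tested and none passed. Their log2 fold changes were negative, but for 4 of the 5 the sign was not stable: Slc6a19 was at 0.27 without Bad+/+ 3, Slc6a14 at 0.12 without Bad+/+ 1, Slc6a6 at 0.0431 without Bad3SA 6 and 0.10 in limma voom, and Slc6a8 at 0.00529 in limma voom. Slc6a15, a carrier of branched-chain amino acids and proline known from brain, had the lowest fold change of the tested members. It was at 6.79, 4.15, 6.00, 24.9, 39.9 and 38.8 CPM in Bad3SA 1 to 6, against 25.9, 15.1, 44.2, 14.9, 104 and 139 CPM in Bad+/+ 1 to 6. Bad3SA 1 to 3 were below every Bad+/+ tumour and Bad3SA 4 to 6 among them (log2 fold change -1.51, SE 0.71, edgeR adjusted p = 0.313). The taurine carrier Slc6a6 was at 116, 158, 140, 82.2, 72.0 and 56.2 CPM in Bad3SA 1 to 6, against 90.5, 105, 115, 134, 125 and 91.7 CPM in Bad+/+ 1 to 6, with Bad3SA 4 to 6 below and Bad3SA 2 and 3 above all Bad+/+ tumours (log2 fold change -0.08, SE 0.23, edgeR adjusted p = 0.871). The creatine carrier Slc6a8, on the X chromosome, was at 105, 116, 101, 82.2, 59.5 and 73.5 CPM in Bad3SA 1 to 6 and at 97.0, 96.6, 93.5, 113, 92.8 and 78.3 CPM in Bad+/+ 1 to 6, the 2 lowest tumours being Bad3SA 5 and 6 (log2 fold change -0.09, SE 0.15, edgeR adjusted p = 0.790). Slc6a14, a broad carrier of neutral and cationic amino acids found in mammary and other epithelia, stood at 13.9 ± 6.47 CPM in Bad3SA and 14.8 ± 7.65 CPM in Bad+/+ (SD, n = 6 each, log2 fold change -0.10, SE 0.36), and Slc6a19, an epithelial carrier of neutral amino acids, at a log2 fold change of -0.44 (SE 0.58).

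In the SLC36 family, 2 of the 3 tested members had an unadjusted p under 0.05 and opposite signs. Slc36a4, a proton-independent carrier of proline and tryptophan, was at 17.3, 18.0, 16.7, 15.1, 18.8 and 13.7 CPM in Bad3SA 1 to 6, against 25.1, 23.4, 25.2, 18.3, 17.8 and 16.0 CPM in Bad+/+ 1 to 6. All Bad3SA tumours were below the Bad+/+ median, and Bad+/+ 4 to 6 lay within the Bad3SA range (log2 fold change -0.34, SE 0.14, edgeR adjusted p = 0.275). Slc36a2, a carrier of glycine and proline that also marks brown and beige fat cells, was at 0.23, 0.781, 0.649, 0.267, 1.27 and 0.0974 CPM in Bad3SA 1 to 6, against 0.268, 0.0693, 0.207, 0.387, 0.0701 and 0 CPM in Bad+/+ 1 to 6. Bad3SA 2, 3 and 5 exceeded every Bad+/+ tumour, and the others lay among them (log2 fold change 1.70, SE 0.75, edgeR adjusted p = 0.285). With age as a covariate it was 0.64 (SE 0.90, adjusted p = 0.965). The 8 adipocyte markers summed to 25.7, 63.8, 57.7, 22.0, 192 and 28.3 CPM in Bad3SA 1 to 6, against 29.5, 22.4, 14.4, 64.1, 17.8 and 10.2 CPM in Bad+/+ 1 to 6, so Slc36a2 was highest in the tumours of each genotype where these markers were highest, and their part in its difference was not tested. The lysosomal carrier Slc36a1 stood at 28.8 ± 5.03 CPM in Bad3SA and 23.2 ± 4.24 CPM in Bad+/+ (SD, n = 6 each, log2 fold change 0.31, SE 0.15, edgeR adjusted p = 0.328).

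One gene that the naming rule brings in, Slc7a6os, is named for lying beside Slc7a6 on the other strand and does not encode a carrier. It was at 33.8 ± 4.08 CPM in Bad3SA and 29.0 ± 2.39 CPM in Bad+/+ (SD, n = 6 each, log2 fold change 0.22, SE 0.10, edgeR adjusted p = 0.313).

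Within Bad3SA, 17 of the 33 tested members separated tumours 1 to 3 from tumours 4 to 6 without overlap. This split was seen after the values were known, and 36.6% of all tested genes did likewise, so it is not confined to these members. The members' share was above that of all genes, and the difference was not tested. Higher in Bad3SA 1 to 3 were 10 members, namely Slc3a2 with its light chains Slc7a5, Slc7a6 and Slc7a11, the taurine, creatine and glycine carriers Slc6a6, Slc6a8 and Slc6a9, Slc6a14, Slc38a7 and Slc38a10. Lower in them were 7, namely Slc1a5, Slc38a1, Slc3a1, Slc6a15, Slc6a19, Slc7a3 and Slc7a4. Between Bad+/+ 1 to 3 and Bad+/+ 4 to 6 there were 9 such members, beside 15.3% of all genes. The labels give no batch for these numbers. Of 17 marker lists 5 had sums that separated the same tumours, all higher in Bad3SA 1 to 3: basal and myoepithelial (1383 to 1768 CPM in Bad3SA 1 to 3 and 778 to 863 CPM in Bad3SA 4 to 6), Schwann and glial (680 to 732 and 424 to 560 CPM in the same order), erythroid (209 to 229 and 67.3 to 208 CPM), neutrophil (16.2 to 21.2 and 11.0 to 12.4 CPM) and neuron (5.48 to 9.26 and 1.93 to 4.65 CPM). These sums were not split by gene, so a sum can rest on few genes of its list. In the Schwann and glial list Mbp and Pmp22 averaged only 47.7 and 30.9 CPM over the Bad3SA tumours. The part of these markers in the members' values was not tested.

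**Figure D5:**
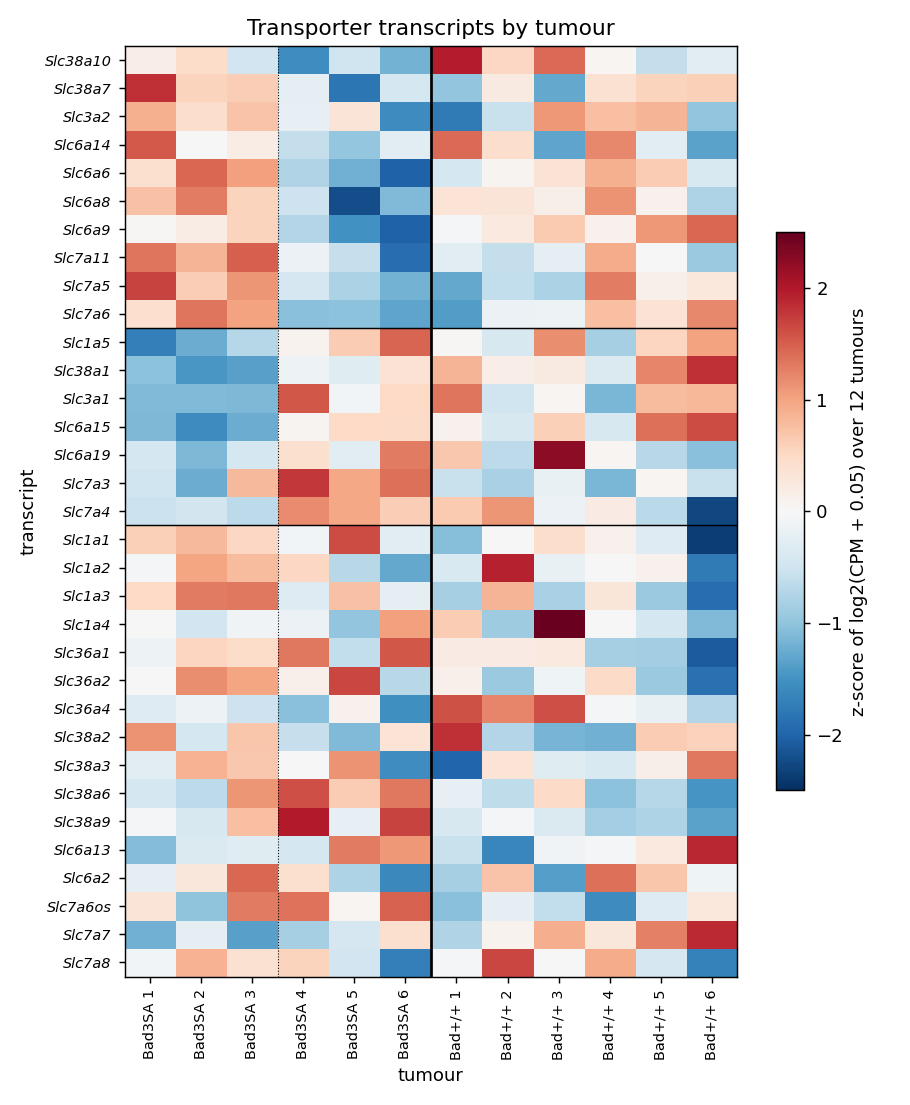
Each row is a tested member and each column a tumour, Bad3SA 1 to 6 left of the solid line and Bad+/+ 1 to 6 right of it, coloured by z-score of log2(CPM + 0.05) over the 12 tumours. The top block holds the 10 members higher in Bad3SA 1 to 3 than in Bad3SA 4 to 6, the middle block the 7 that are lower, and the bottom block the 16 others.

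Because the split was seen in these same values, fold changes within its parts are given as a description only. The genes named are among the members that passed in edgeR fits of such parts. They were thus picked by these same values, and their passing is no evidence. Between tumours numbered 1 to 3 of each genotype the log2 fold change was 1.18 for Slc7a5 and 1.72 for Slc7a11, and between tumours 4 to 6 it was -0.84 for Slc7a5 and -1.04 for Slc7a11, the opposite sign. Slc38a1, Slc6a15 and Slc36a4 were negative in both, at -1.07, -2.36 and -0.52 between tumours 1 to 3 and at -0.68, -1.33 and -0.16 between tumours 4 to 6. Slc7a3 was at 0.51 between tumours 1 to 3 and 2.12 between tumours 4 to 6, and Slc6a9 at -0.0491 and -1.41 in the same order. No label links same-numbered tumours across genotypes, so these parts are not matched sets. Slc7a5 was lower in Bad+/+ 1 to 3 than in Bad+/+ 4 to 6, and Bad+/+ 4 was the highest Bad+/+ tumour for Slc7a11. For Slc7a11 the values of Bad+/+ 1 to 3 and Bad+/+ 4 to 6 overlapped. Both genes were also higher in Bad3SA 1 to 3 than in Bad3SA 4 to 6. The part of either genotype's differences in the change of sign was not tested.

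Lists of genes that handle the same amino acids held 1 call or none each, beside the 1.38% of all genes, so these counts set no list apart. Of 33 tested genes of amino acid sensing and mTORC1, 1 passed, Nprl2, a subunit of the GATOR1 complex that restrains mTORC1 when amino acids are low. It was at 27.7, 21.9, 24.5, 28.0, 29.8 and 26.8 CPM in Bad3SA 1 to 6, against 18.3, 17.3, 16.5, 20.5, 18.1 and 22.0 CPM in Bad+/+ 1 to 6, a rise of log2 0.49 (SE 0.11, edgeR adjusted p = 0.0472) with overlap only between Bad3SA 2 and Bad+/+ 6. Of 13 tested genes of neurotransmitter synthesis, storage and breakdown, 1 passed, Abat, the enzyme that breaks down GABA. It was at 10.3, 11.0, 11.2, 10.1, 6.46 and 7.39 CPM in Bad3SA 1 to 6, against 12.8, 17.7, 20.2, 14.2, 20.0 and 20.6 CPM in Bad+/+ 1 to 6, without overlap, and the fitted log2 difference was -0.90 (edgeR adjusted p = 0.0255, SE 0.18). The GABA-forming enzyme gene Gad1 stood at 2.42 ± 1.74 CPM in Bad3SA and 3.67 ± 4.35 CPM in Bad+/+ (edgeR adjusted p = 0.686).

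Of 29 tested stress response targets outside the carriers, 16 were positive and 13 negative and 0 passed in edgeR, with 4 at an unadjusted p under 0.05, all positive, beside 7.18% of all genes with a positive fold change at that threshold. The list's median log2 fold change was 0.04. Nupr1, a stress-induced regulator, stood at 167 ± 19.9 CPM in Bad3SA and 111 ± 23.6 CPM in Bad+/+ (SD, n = 6 each, edgeR adjusted p = 0.0690, log2 fold change 0.59, SE 0.15). Asns, asparagine synthetase, stood at a log2 fold change of -0.36 (SE 0.17, adjusted p = 0.322). None passed among 20 genes of glutamine, glutamate and asparagine enzymes, 16 of serine, glycine and folate metabolism and 23 of glutathione and cystine use. Nor did any among 18 of branched-chain amino acid catabolism and 22 other amino acid carriers. In that order these lists had 3, 3, 5, 2 and 5 genes at an unadjusted p under 0.05 in edgeR, beside 16.2% of all genes. Of these genes 2, 2, 4, 1 and 4 were positive, beside 7.18% of all genes. The others, 1 in each list, were negative, beside 9.02% of all genes. The glutathione list had 16 positive and 7 negative genes, with a median log2 fold change of 0.22. The differences from all genes were not tested. In the glutathione list Hmox1 stood at 1.10 (SE 0.31, edgeR adjusted p = 0.117) and Ftl1 at 0.48 (SE 0.13, adjusted p = 0.101), and among other carriers Slc25a18, a mitochondrial glutamate carrier, at 0.93 (SE 0.29, adjusted p = 0.159).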

How the data were processed

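The authors' table holds unnormalised counts for each gene in 12 tumours. GRCm38, STAR 2.7.9a, fastp 0.23.1 and DESeq2 are named, without roles, in the submitters' processing notes. No counting tool, annotation or strand setting is given there. The authors' deposited comparison of the genotypes has a log2 fold change and an adjusted p-value for each gene, and its sign was read as Bad+/+ over Bad3SA because it correlates with the fit made here at a Spearman rho of -0.997 across genes.

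Counts were filtered with filterByExpr, normalised with TMM and tested for genotype by the quasi-likelihood F test of edgeR 4.0.16 (robust dispersion) in R 4.3.3, with Benjamini-Hochberg adjustment over all 18019 genes and a threshold of 0.05. The SE was taken as |log2 fold change| over √F. Depth ran from 58096172 to 83296370 counts, and 3 counts equal 0.0346 to 0.0544 CPM, which covers counting error only. Principal components used log2 CPM with a prior count of 2. Exon lengths, positions and overlaps come from GENCODE M21 on GRCm38, where all 58 members matched. Correlations used 100000 permutations, and every order within a genotype. limma 3.58.1, DESeq2 1.42.0, scipy 1.17.1 and matplotlib 3.10.9 were used. The fit was tested on simulated counts.

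Genes described in full were those with an unadjusted p under 0.05, then the 6 highest per kilobase. In the other lists the genes that passed were given in full. Those with the 2 smallest p of a list were not all named, whereas Asns, Gad1 and Dbh were named without being among them. Slc7a5, Slc7a11, Slc6a15, Slc1a4 and the other members given tumour by tumour beyond the rule for members were chosen after their values were seen. The members and lists were chosen with earlier results of these data known. As alternatives, the fit was repeated with size factors of DESeq2, its Wald test, limma voom, other filters, a non-robust dispersion, end-point age, a replicate block and each tumour left out.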

Additional observations from a re-analysis of the deposited data

Results flagged for a closer look

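In groups of 6 tumours, 66 sets of CPM values were examined for a tumour far from the rest, by the gap to its nearest neighbour as a share of the range, and 6 were found. Chance gives about 1 in 20 for normally distributed values. The CPM values were not transformed and the sets share the same tumours, so that rate is only a rough guide. All 6 were high values. Slc1a4 was at 136 CPM in Bad+/+ 3, against 57.1 CPM in the next Bad+/+ tumour. Slc6a19, the epithelial neutral amino acid carrier B0AT1, was at 1.71 CPM in the same tumour, against 0.622 CPM in the next. Slc1a2, a glutamate carrier, was at 20.7 CPM in Bad+/+ 2, against 8.91 CPM in the next. Slc6a13 was at 1.5 CPM in Bad+/+ 6, against 0.323 CPM in the next, and Slc7a11 was at 1.37 CPM in Bad+/+ 4, against 0.687 CPM in the next. In Bad3SA the only such value was Slc6a14, at 26.4 CPM in Bad3SA 1, against 14.2 CPM in the next Bad3SA tumour.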

How the results depend on the processing

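The 8 carriers with an unadjusted p under 0.05 kept the sign of their fold change in all 190 refits that gave a value, and 7 of these passed the threshold. They were picked by p in the same tumours, so a kept sign is little further evidence. The passes were Slc38a1 and Slc7a3 in DESeq2 and Slc38a1 in limma voom. The others were Slc38a1 and Slc36a4 in tumours 1 to 3 alone, and Slc6a9 and Slc7a3 with Bad3SA 4 to 6 against all Bad+/+ tumours. The 0 calls became 2 with DESeq2, 1 with limma voom, 5 in tumours 1 to 3 alone and 3 with Bad3SA 4 to 6 against all Bad+/+ tumours, and stayed 0 with each tumour left out. The members' median log2 fold change of -0.07 was 0.10 with limma voom, 0.11 in tumours 1 to 3 alone, 0.18 with Bad3SA 1 to 3 and -0.27 with Bad3SA 4 to 6 against all Bad+/+ tumours, and -0.10 to 0.0536 with 1 tumour left out (0.0536 without Bad3SA 6). The subsets of tumours 1 to 3 and 4 to 6 were chosen after members had been seen to separate along them, so calls within them are no further evidence. Calls over all genes, 249, were 863 with DESeq2, 579 with limma voom, 163 at 1 CPM in 6 tumours, 73 with end-point age, 1201 in tumours 1 to 3 and 73 in tumours 4 to 6 alone, 151 and 1454 with Bad3SA 1 to 3 and Bad3SA 4 to 6 against all Bad+/+ tumours, and 147 to 315 with 1 tumour left out. A block by tumour number gave 105 genes and 0 members, but same-numbered tumours did not deviate together (correlations -0.271 to 0.283, best for its own number only at number 6). Without a filter the median over all genes was 0.134. The correlation of Slc3a2 with Slc7a11 passed with DESeq2 size factors (r = 0.726, permutation p adjusted 0.0360). The age difference was 4.00 weeks in medians (exact permutation p = 0.0628), and 2.67 to 4.32 weeks with 1 mouse left out (exact permutation p = 0.00866 to 0.0866). The causes were not tested. Low counts limit Slc7a3, Slc36a2, Slc6a13, Slc6a19, Slc3a1 and Slc7a11, where a few counts move a value.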
